A study of Oryza sativa with 4 samples.

Results

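Chromatin accessibility was examined at the regulators of the phosphate starvation response in rice leaves, the 4 transcription factors OsPHR1 to OsPHR4 and the ubiquitin-conjugating enzyme OsPHO2. Every peak that the deposited table assigns to LOC_Os03g21240 (OsPHR1), LOC_Os07g25710 (OsPHR2), LOC_Os02g04640 (OsPHR3), LOC_Os06g49040 (OsPHR4) or LOC_Os05g48390 (OsPHO2) was taken, which gave 10 of 46114 listed peaks. The assay was ATAC-seq, in which Tn5 transposase inserts adapters into open DNA so that reads pile up at accessible sites. The Oryza sativa plants were Oshmgb1 mutants and wild type (WT), with 2 libraries per genotype, from leaf blades after 28 days of a treatment named HP in the labels. OsHMGB1 belongs to the high mobility group box proteins of chromatin. The labels do not state the kind of mutation, the number of lines or whether libraries came from separate plants, so p-values measure the spread between libraries, which may be technical.

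PHR proteins are MYB-type factors with a coiled-coil region. As dimers they bind a short palindrome in the promoters of genes that are switched on when phosphate runs low. SPX proteins hold them back when phosphate is ample. PHO2 marks phosphate transporters for degradation, and in starved plants its transcript is itself cleaved by the microRNA miR399, which PHR proteins induce. In leaves this circuit sets how much phosphate is taken in, kept or sent on.

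None of the 10 peaks passed the test between genotypes. The OsPHR2 promoter was the most open of them and had the narrowest interval, at 1.02-fold of WT in Oshmgb1 (95% interval 0.879 to 1.18). The peaks at the starts of OsPHR1, OsPHR3 and OsPHR4 and both OsPHO2 peaks had lower values in both Oshmgb1 libraries than in both WT libraries, at 0.743 to 0.840 of the WT level. Each of these 5 differences missed the threshold, with adjusted p from 0.438 to 0.695 in edgeR's quasi-likelihood test. Of all listed peaks, 21.6% were likewise lower in both Oshmgb1 libraries, and 21.6% were higher in both. The OsPHR1 intron 1 peak went the other way, higher in both Oshmgb1 libraries (edgeR adjusted p 0.760).

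Reads in listed peaks numbered 7228483 to 10400677 per library. The 10 peaks together held 1374 and 1529 reads in the WT libraries and 1902 and 1492 in the Oshmgb1 libraries. All levels are reads divided by TMM-adjusted library size (CPM). Leaf blades hold several cell types, and fewer cells with an open site cannot be told apart from less opening per cell. As a check of the tissue label, 6 of 6 leaf marker genes (Rubisco small subunits and light-harvesting proteins) had peaks, at 54.5 to 56.4 CPM per kb of peak summed over the list. Of 4 root marker genes, 3 had a peak, at 21.2 to 24.5 CPM per kb, while CASP1 had none. Single genes of the lists were not cleanly apart. The root gene RCc3 had 40.3 and 35.1 CPM per kb in WT, above the light-harvesting gene LOC_Os01g52240 at 28.8 and 29.0. The remaining leaf genes lay above every root gene in each library. None of the 16 leaf and 3 root marker peaks was called by edgeR, where only 0.403% of all peaks were called. An open site alone does not show that a gene is transcribed.

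OsPHR2 had a single broad peak, OsPHR1 had 3 peaks and OsPHR3, OsPHR4 and OsPHO2 had 2 each. The peak over the OsPHR2 start spanned 1244 bp, wider than 92.3% of all peaks. The peaks over the starts of OsPHR1, OsPHR3 and OsPHR4 spanned only 316, 274 and 287 bp. The OsPHR4 peak at the start is classed as 5′ UTR in the deposited table, so 3 of the 5 genes had a peak of the promoter class, against 53.1% of the 27116 genes with a listed peak. OsPHO2 had no peak at its start, and both of its peaks lay in exon 4 of 11, with centres 3422 and 4370 bp inside the gene.

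The gap at the OsPHO2 start can be placed exactly, because peak numbers follow genome order and only 80.3% of the numbered peaks are listed. No number is missing between the OsPHO2 exon peaks and the next listed peak upstream, which lies 7974 bp before the gene start. Hence no numbered peak falls on the OsPHO2 promoter. Numbers also run without a gap across OsPHR1, OsPHR2 and OsPHR3. Upstream of OsPHR4, 3 numbered peaks within 14970 bp of the gene start are not among those analysed here.

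**Figure D1:**
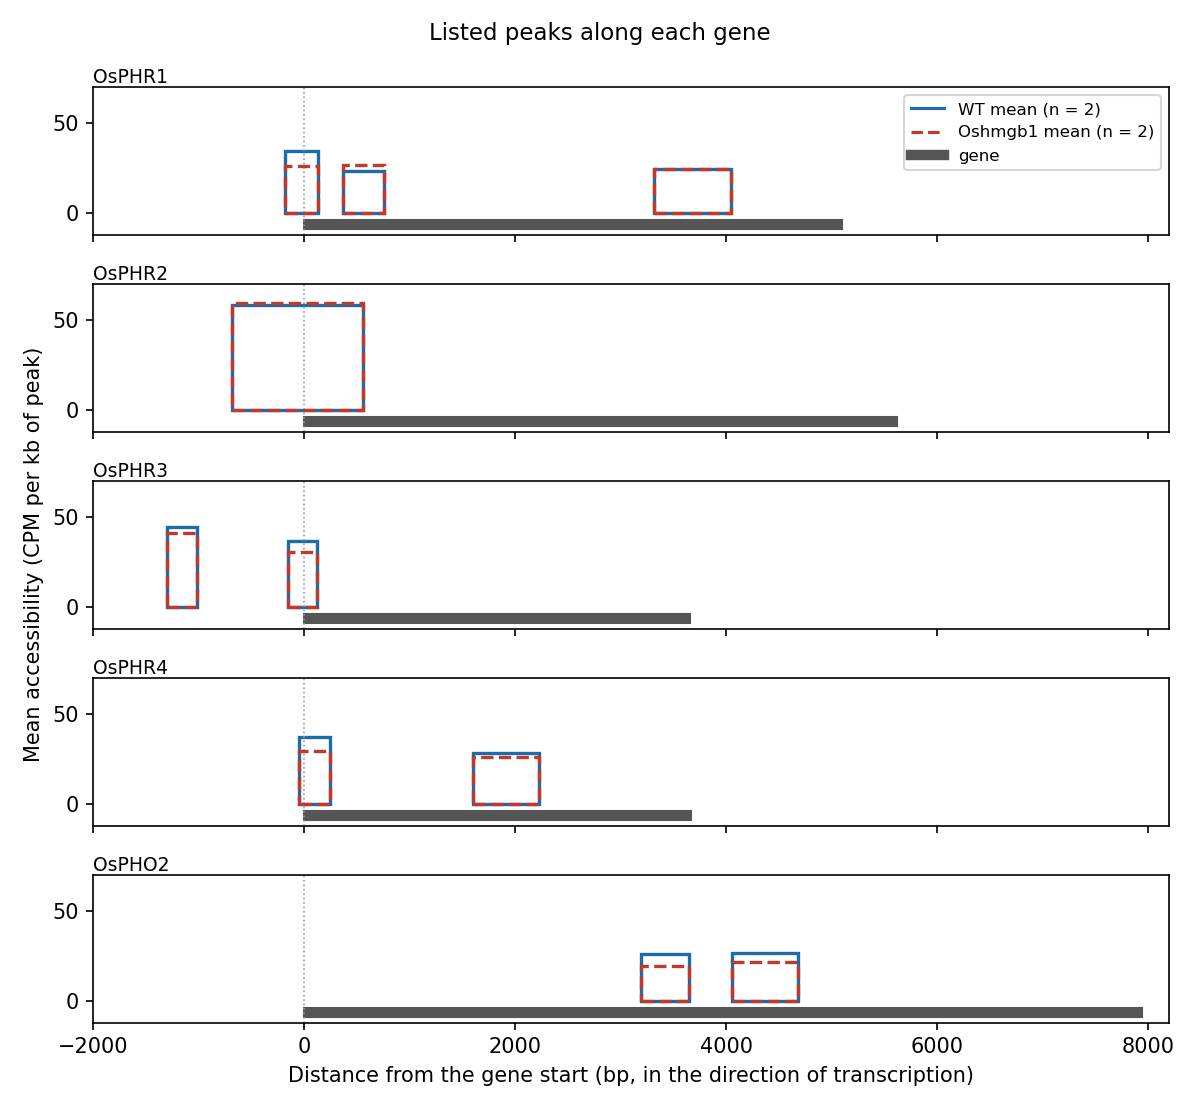
Listed peaks along the 5 genes, by distance from the gene start in bp in the direction of transcription. Boxes show each peak's extent and its mean level in CPM per kb in WT (blue) and Oshmgb1 (red, dashed), n = 2 each, and the grey bar is the gene. The tallest and broadest box lies over the OsPHR2 start, and OsPHO2 has boxes only inside the gene.

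Per length, the OsPHR2 promoter stood above every other peak of the 5 genes in all 4 libraries. Its level was 58.4 ± 3.39 CPM per kb in WT (SD, n = 2) and 59.3 ± 6.14 in Oshmgb1, above 96.3% of all listed peaks and 92.4% of the 11867 promoter peaks within 1 kb of a start. The upstream OsPHR3 promoter peak came second in both genotypes, at 44.6 ± 2.40 CPM per kb in WT and 40.9 ± 5.25 in Oshmgb1. The start peaks of OsPHR4, OsPHR3 and OsPHR1 followed in WT at 37.3 ± 3.31, 36.4 ± 5.89 and 34.6 ± 2.50 CPM per kb, and each overlapped the next. Peaks inside genes were lowest in WT, from 28.5 ± 1.14 CPM per kb at OsPHR4 exon 2 down to 23.1 ± 1.82 at OsPHR1 intron 1.

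In WT, neighbours in this order were apart in both libraries at 4 steps. These were OsPHR2 above the upstream OsPHR3 peak, that peak above the OsPHR4 start, the OsPHR1 start above OsPHR4 exon 2, and that exon peak above the OsPHO2 exon peaks. The remaining peaks, those of OsPHO2 and of the OsPHR1 introns, each overlapped the next. In Oshmgb1 both OsPHO2 peaks were the lowest of all by mean, at 21.9 ± 0.00868 and 19.5 ± 5.64 CPM per kb, where in WT the OsPHR1 intron peaks were lower. The OsPHR1 start peak was the fifth of 10 in WT and the seventh in Oshmgb1, at 26.2 ± 4.76 CPM per kb. Just above it in Oshmgb1 came OsPHR1 intron 1 at 26.7 ± 1.08 and OsPHR4 exon 2 at 26.3 ± 2.84 CPM per kb. Its libraries overlapped those of both, so this order in Oshmgb1 is not resolved. Levels per kb compare peaks of different sequence, to which Tn5 cuts and read mapping may respond differently.

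**Figure D2:**
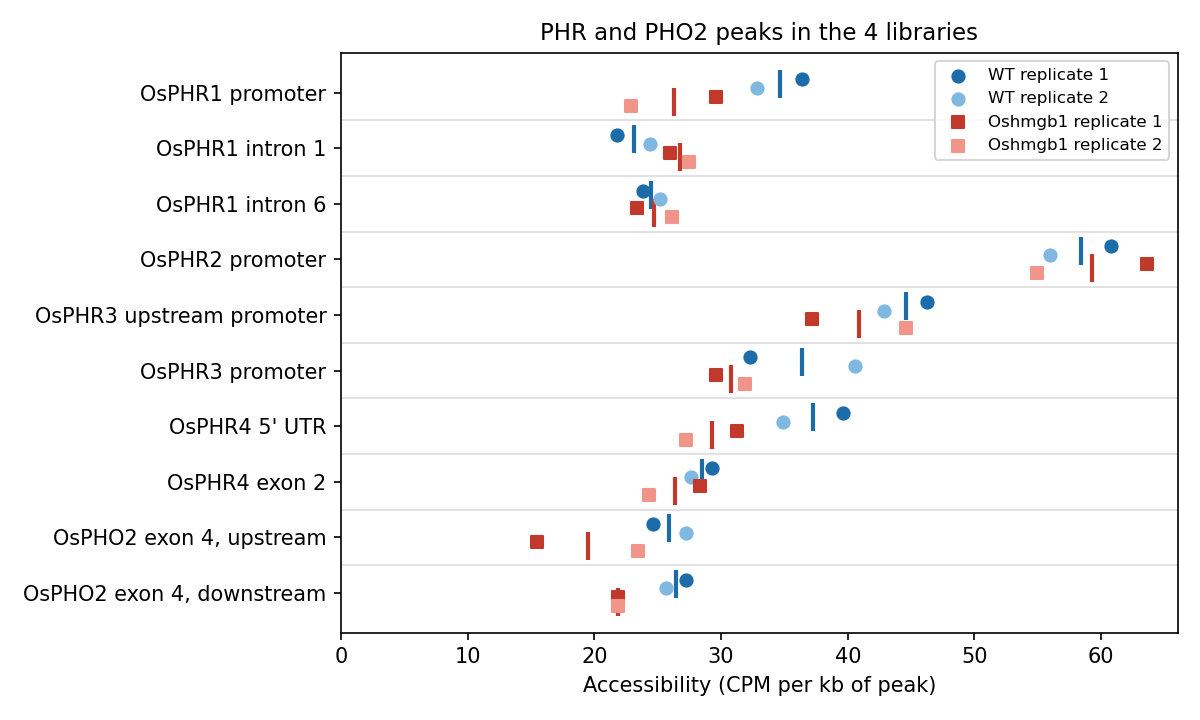
Accessibility in CPM per kb of peak for the 10 peaks in each library. Circles are WT and squares Oshmgb1 libraries, and vertical ticks are genotype means (n = 2), with the OsPHO2 peak nearer to the gene start marked upstream. The OsPHR2 promoter lies at 54.9 or more in all libraries, and the squares lie left of the circles at 5 peaks.

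OsPHR2 is the central activator of phosphate starvation genes in rice, and plants that overexpress it build up phosphate in their shoots. Its promoter peak (chromosome 7, 14753066 to 14754309, over the start of a plus-strand gene) held 539 and 570 reads in the WT libraries and 829 and 586 in the Oshmgb1 libraries. Scaled, these were 75.6 and 69.7 CPM in WT and 79.1 and 68.3 CPM in Oshmgb1. The Oshmgb1 libraries lay above and below both WT libraries, so the groups overlapped. The log2 fold change of Oshmgb1 over WT came to 0.03 ± 0.11 (SE; edgeR, adjusted p 0.954). Its sign turned under 4 alternatives, and its 95% interval ran from -0.19 to 0.24.

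This single peak held between 44.0% and 49.2% of all reads in the peaks of the 4 PHR genes. The share was 46.0% (exact 95% binomial interval 43.1 to 48.9) and 44.0% (41.3 to 46.8) in the WT libraries. It was 49.2% (46.8 to 51.6) and 45.7% (43.0 to 48.5) in the Oshmgb1 libraries, which straddle the first WT library. These intervals leave out the spread between libraries. They also treat each read as a separate molecule, which not all reads from PCR-amplified libraries are, so they may be too narrow even for counting error.

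OsPHR1 acts beside OsPHR2 as an activator of the same response. Its start peak (chromosome 3, 12126063 to 12126378, plus strand) held 82 and 85 reads in WT and 98 and 62 in Oshmgb1. That made 11.5 and 10.4 CPM in WT against 9.36 and 7.23 CPM in Oshmgb1. Both mutant libraries were lower, without overlap. The log2 fold change came to -0.39 ± 0.23 (SE, adjusted p 0.503). It was -0.59 without Oshmgb1 replicate 1 and -0.22 without Oshmgb1 replicate 2, so its size depends on which mutant library is kept.

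The other OsPHR1 peaks did not follow the start peak. In intron 1 of 7 (12126615 to 12127000), 236 bp further on, the values were 8.42 and 9.41 CPM in WT and 10.0 and 10.6 CPM in Oshmgb1. Here both Oshmgb1 libraries were higher, again without overlap, at a log2 fold change of 0.21 ± 0.23 (SE) and an adjusted p of 0.760. In intron 6 (12129564 to 12130287) the values were 17.3 and 18.2 CPM in WT and 16.9 and 18.9 CPM in Oshmgb1. There the genotypes overlapped fully, at 0.01 ± 0.18 (SE, adjusted p 0.991).

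OsPHR3 shares the activator role with OsPHR1 and OsPHR2. Its start peak (chromosome 2, 2079030 to 2079303, minus strand) held 63 and 91 reads in WT and 85 and 75 in Oshmgb1, or 8.84 and 11.1 CPM against 8.11 and 8.75 CPM. The second Oshmgb1 library lay just below the first WT library, so the separation was slight. The log2 fold change was -0.25 ± 0.23 (SE, adjusted p 0.695), and -0.07 without WT replicate 2. The upstream promoter peak, 863 bp further from the gene (2080167 to 2080451), had 13.2 and 12.2 CPM in WT and 10.6 and 12.7 CPM in Oshmgb1. It overlapped between genotypes, at -0.13 ± 0.21 (SE, adjusted p 0.856).

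OsPHR4, listed with the symbol PHR3 in the deposited table, is the remaining activator of the group. Its peak at the start (chromosome 6, 29723414 to 29723700, plus strand, classed as 5′ UTR) held 81 and 82 reads in WT and 94 and 67 in Oshmgb1. Scaled to depth these were 11.4 and 10.0 CPM in WT and 8.97 and 7.81 CPM in Oshmgb1. The mutant libraries were both lower, at a log2 fold change of -0.34 ± 0.23 (SE) and an adjusted p of 0.563. The exon 2 peak (29725063 to 29725685) had 18.2 and 17.2 CPM in WT and 17.7 and 15.2 CPM in Oshmgb1. It overlapped between genotypes, at -0.11 ± 0.19 (SE, adjusted p 0.867).

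OsPHO2, listed with the symbol UBC24, restrains phosphate uptake and its movement to the shoot, and mutants of the gene accumulate phosphate in leaves. The exon 4 peak nearer to the gene start (chromosome 5, 27744298 to 27744759, minus strand) held 81 and 103 reads in WT and 75 and 93 in Oshmgb1. These were 11.4 and 12.6 CPM in WT and 7.16 and 10.8 CPM in Oshmgb1. The mutant libraries were both lower but far apart, with 1 of them close to WT. The log2 fold change of -0.43 ± 0.23 (SE) was the largest of the 10 in size, and its edgeR adjusted p was 0.438 (0.0599 before adjustment). A difference of this size or more, in either direction, was seen in 10.5% of all peaks.

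Without Oshmgb1 replicate 1 that value was -0.14, and without Oshmgb1 replicate 2 it was -0.74 (unadjusted p 0.0119, adjusted p 0.498). The second OsPHO2 peak, 405 bp further into the gene in the same exon (27743269 to 27743892), was steadier. It measured 17.0 and 16.0 CPM in WT and 13.7 and 13.6 CPM in Oshmgb1, with no overlap. Its log2 fold change was -0.27 ± 0.20 (SE, adjusted p 0.604), and leaving out any library kept it between -0.31 and -0.23.

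Of the 10 peaks, 0 were called by edgeR at an adjusted p under 0.05, where 0.403% of all peaks were called, so a count of 0 among 10 is near the background. Before adjustment, 0 of them had an edgeR p under 0.05, against 12.2% of all peaks. DESeq2 likewise gave 0, against 3.78% of all peaks, and the authors' deposited table lists 0, against 4.79%. Genotypes did not overlap at 6 of the 10 peaks, against 43.2% of all peaks. Both Oshmgb1 libraries were the lower at 5 of these, against 21.6% of all peaks, and the higher at 1, also against 21.6%. Peaks of the same gene share their surroundings and are not independent. The median log2 fold change over the 10 was -0.19, beside -0.01 over all peaks. A 2-fold difference lay outside the 95% interval from edgeR at 10 of 10 peaks, and at 95.2% of all peaks. DESeq2 had larger standard errors at each of these peaks. It did not exclude a 2-fold difference at the OsPHO2 peak nearer to the gene start (-0.42 ± 0.31 SE) or at the OsPHR1 start (-0.39 ± 0.31 SE). In edgeR, a 1.5-fold difference lay outside the interval at 4 of 10, against 57.9% of all peaks. The edgeR intervals of the other 6 include differences of that size. With each library left out in turn, a 1.5-fold difference lay outside the interval at 2 to 4 of the 10 peaks, the fewest without WT replicate 2. A 2-fold difference then lay outside it at 8 to 10, the fewest without Oshmgb1 replicate 1.

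**Figure D3:**
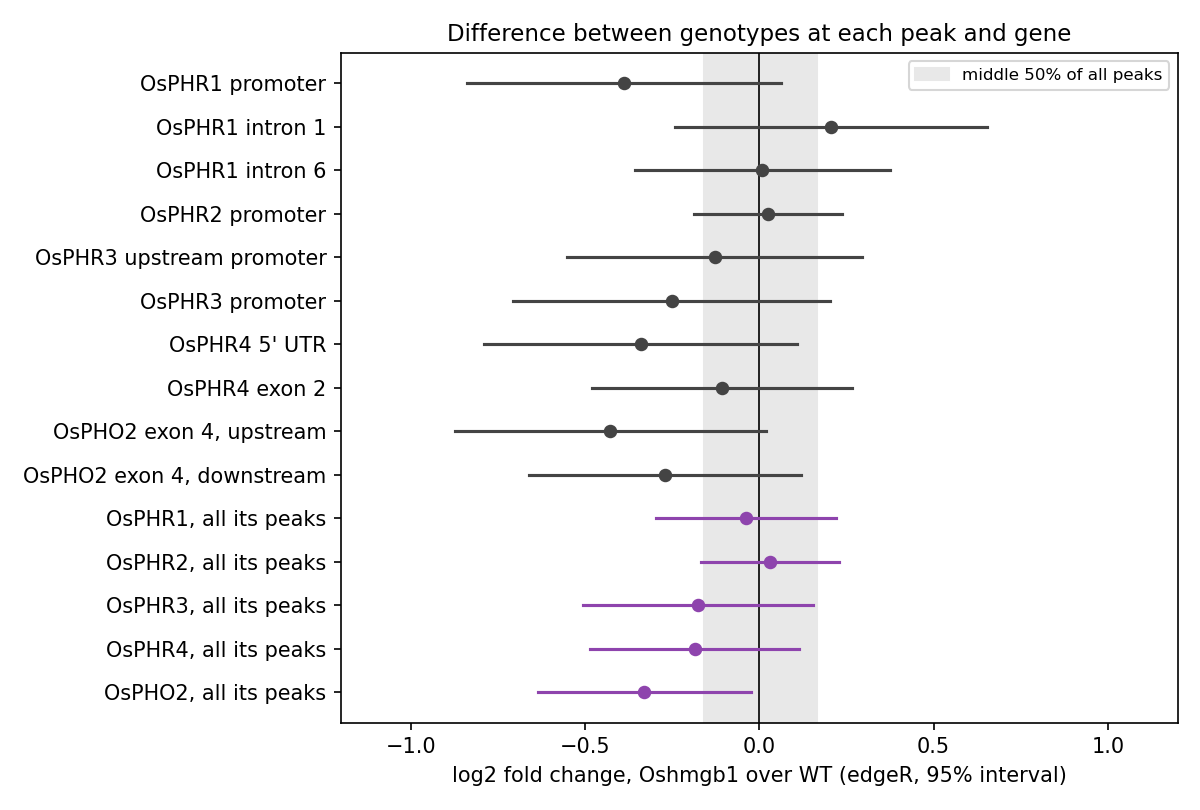
log2 fold change of Oshmgb1 over WT with its 95% interval from edgeR, for the 10 peaks (black) and for each gene's reads summed over its peaks (purple). The shaded band is the middle 50% of all peaks. All 10 peak intervals include 0, and the sum over the OsPHO2 peaks runs from -0.64 to -0.02 before adjustment over all genes.

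Summed over its peaks, each gene gave a single value with more reads behind it. OsPHO2 had 28.3 and 28.6 CPM in WT and 20.9 and 24.5 CPM in Oshmgb1. Both mutant libraries lay below both WT libraries, but they differed from each other far more than the WT libraries did. The log2 fold change was -0.33 ± 0.15 (SE), at an unadjusted p of 0.0345 and an adjusted p of 0.353 over 27116 genes. It thus missed the threshold, and it was -0.22 without Oshmgb1 replicate 1 and -0.45 without Oshmgb1 replicate 2.

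The 4 PHR genes had smaller differences on the summed scale. OsPHR1, whose peaks differed in sign, came to 37.1 and 38.1 CPM in WT and 36.4 and 36.8 CPM in Oshmgb1, a log2 fold change of -0.04 ± 0.13 (SE, adjusted p 0.938). OsPHR3 had -0.18 ± 0.17 and OsPHR4 -0.19 ± 0.15 (SE, adjusted p 0.705 and 0.649). With libraries left out in turn, OsPHR3 ranged from -0.28 without Oshmgb1 replicate 2 to -0.08 without Oshmgb1 replicate 1. OsPHR4 went the other way, from -0.30 without Oshmgb1 replicate 1 to -0.09 without Oshmgb1 replicate 2. OsPHR2, with its single peak, had 0.03 ± 0.10 (SE, adjusted p 0.935). DESeq2, with OsPHR3 at -0.18 ± 0.21 (SE), did not exclude a 1.5-fold difference at that gene. The 95% interval from edgeR excluded a 1.5-fold difference for each of the 4 PHR genes but not for OsPHO2. With a library left out it still did so for OsPHR1 and OsPHR2 in every case. It did not for OsPHR3 without WT replicate 1 or Oshmgb1 replicate 2, nor for OsPHR4 without WT replicate 2 or Oshmgb1 replicate 1. Of the 5 genes 0 were called by edgeR, where 0.542% of all genes were called, and 1 had an unadjusted p under 0.05, against 12.5% of all genes. DESeq2 called 0 and gave 0 at an unadjusted p under 0.05, against 4.27% of all genes. Genotypes did not overlap at 4 of the 5 genes, with Oshmgb1 the lower, against 43.4% of all genes in either direction and 21.1% in this one.

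A ratio between peaks of the same gene within a library does not depend on how libraries are scaled. At OsPHR1 the start peak held 1.37 and 1.10 times the reads of the intron 1 peak in the WT libraries, and 0.933 and 0.681 times in the Oshmgb1 libraries. The start peak therefore had more reads than its neighbour in both WT libraries and fewer in both mutant libraries. It is also the shorter peak (316 against 386 bp), so equal reads are not equal levels. Per kb it stood above intron 1 in both WT libraries and in Oshmgb1 replicate 1 (29.6 against 26.0 CPM per kb). Only in Oshmgb1 replicate 2 was it below (22.9 against 27.5). The log2 ratio differed by -0.62 (Oshmgb1 minus WT), the largest difference in size among the 6 pairs of these genes. Of 28258 pairs within a gene, 8.62% differed by as much or more in either direction. That share holds for any 1 pair, and the largest of 6 would reach this size more often. The exact permutation test, two-sided, gave p = 0.333, the smallest that 2 libraries against 2 allow (0.5 after adjustment over 6 pairs).

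OsPHR4 showed a smaller shift of the same kind, its start peak holding 0.623 and 0.582 times the reads of exon 2 in WT and 0.508 and 0.515 times in Oshmgb1. Genotypes did not overlap in 4 of the 6 pairs, against 42.6% of all pairs within a gene, and 3 of the 6 share the OsPHR1 peaks. The OsPHR3 pair overlapped, with 1.49 and 1.10 in WT and 1.31 and 1.45 in Oshmgb1. The OsPHO2 pair overlapped too, with 0.669 and 0.786 in WT and 0.524 and 0.795 in Oshmgb1.

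**Figure D4:**
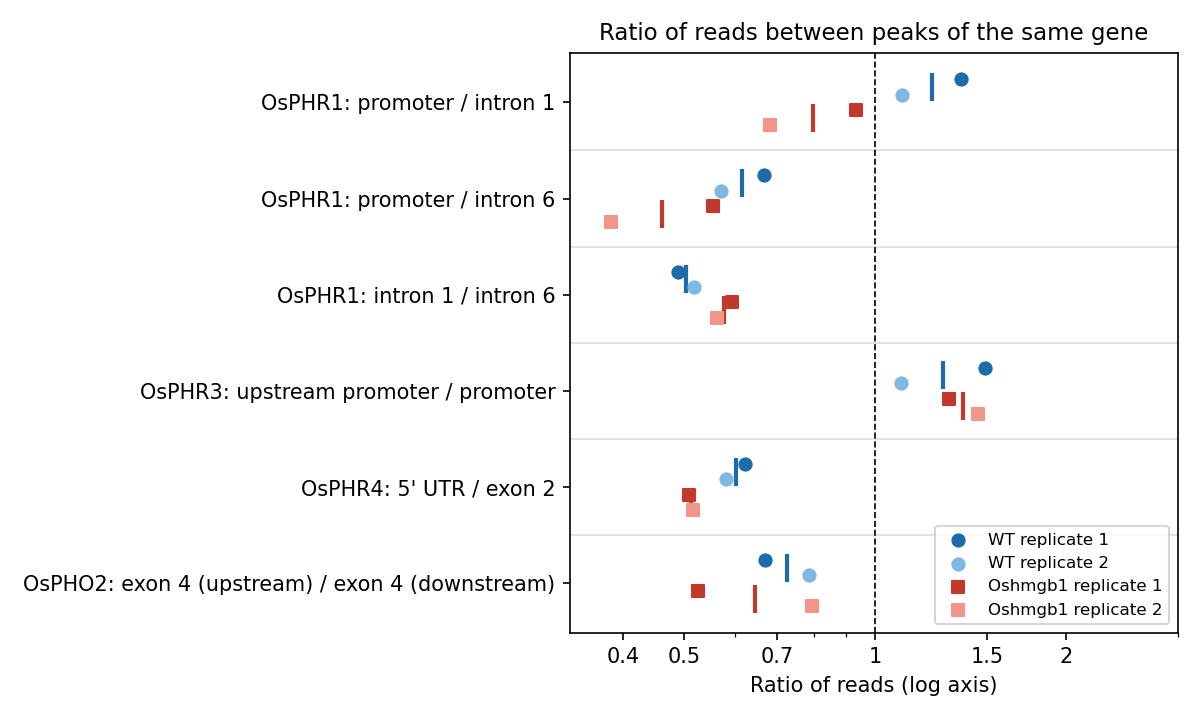
Ratio of reads between peaks of the same gene in each library, on a log axis. Circles are WT, squares Oshmgb1, ticks the genotype geometric means (n = 2), and the dashed line marks equal reads. For OsPHR1 promoter over intron 1 the circles lie right of the line and the squares left of it, with reads not divided by peak length.

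Within 10 kb of the 5 genes lay 15 listed peaks of other genes, and 0 of them were called by edgeR, where 0.403% of all peaks were called. At an unadjusted p under 0.05 there were 2 of the 15 (13.3%), close to the 12.2% of all peaks. Upstream of OsPHO2, the nearest peak lies in the 3′ UTR of LOC_Os05g48410, described as a mitochondrial ribosomal protein of the large subunit. It had 13.2 and 11.2 CPM in WT and 9.64 and 8.40 CPM in Oshmgb1, a log2 fold change of -0.43 ± 0.22 (SE, adjusted p 0.427). An intron peak of that gene had -0.28 ± 0.22, and a promoter peak of LOC_Os05g48370 on the other side of OsPHO2 had 0.0034 ± 0.13 (SE). Negative values were thus also found at the gene of the nearest upstream peak, and no test compared them with those of OsPHO2.

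Around the PHR genes the neighbours went both ways. The lowest unadjusted p was at an exon peak of LOC_Os02g04610, downstream of OsPHR3, with 14.6 and 14.9 CPM in WT and 24.3 and 21.1 CPM in Oshmgb1. Its log2 fold change was 0.63 ± 0.18 (SE, adjusted p 0.0960), opposite in sign to both OsPHR3 peaks. The median log2 fold change over the 15 neighbours was 0.08.

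The proteins that act on PHR and PHO2, or under them, and other transcription factors were taken as a list of 28 other phosphate genes. In all, 21 of them had 42 listed peaks. Of these 42 peaks, 0 were higher and 0 lower by edgeR, where 0.403% of all peaks were called. At an unadjusted edgeR p under 0.05 there were 7 of the 42 (16.7%), against 12.2% of all peaks. DESeq2 gave 2 of the 42, a share slightly above its 3.78% of all peaks. The authors' deposited table lists 5 of the 42, a share well above its 4.79% of all peaks. Their median log2 fold change was 0.03. The SPX sensors that bind PHR proteins had peaks at 3 of 6 genes, and the genes differed in sign. All 3 positive values were peaks of OsSPX1 (0.30, 0.40 and 0.22), while the single peaks of OsSPX3 and OsSPX4 had -0.25 and -0.23, so the median of 0.22 over the 5 peaks is an OsSPX1 value. The lowest unadjusted p was at OsSPX1 intron 2, with 26.1 ± 2.25 CPM in WT and 32.2 ± 3.33 in Oshmgb1 (log2 fold change 0.30 ± 0.15 SE, adjusted p 0.399).

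Proteins whose level PHO2 is known to control gave no called peak either. The PHT1 uptake transporters, with the exit factor OsPHF1, had a median of -0.03 over 11 peaks. Their lowest p was at the 5′ UTR peak of OsPT4, with 58.0 ± 0.941 CPM in WT and 48.5 ± 0.0107 in Oshmgb1 (-0.26 ± 0.12 SE, adjusted p 0.342). The PHO1 exporters, known as PHO2 substrates from Arabidopsis, had a median of 0.12 over 6 peaks, 4 of which belong to OsPHO1;3. OsPHO1;1 had 0.06, while OsPHO1;2 had -0.29 and OsPHO1;3 intron 8 -0.19. The other OsPHO1;3 peaks had 0.18, 0.20 and 0.41. The last of these, in exon 12, measured 17.7 ± 1.87 CPM in WT and 23.7 ± 1.27 in Oshmgb1 (0.41 ± 0.17 SE, adjusted p 0.303). Both promoter peaks of the ubiquitin ligase OsNLA1, a partner of PHO2 in transporter turnover, were near 0, at 0.01 ± 0.19 and 0.07 ± 0.19 (SE).

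The vacuolar SPX-MFS transporters had a median of -0.22 over 6 peaks, the lowest p being at the OsSPX-MFS3 promoter (adjusted p 0.297). Among the other transcription factors it was at OsPTF1 (adjusted p 0.224), and among the PHR target enzymes at the acid phosphatase OsPAP10a (log2 fold change 0.71 ± 0.20 SE, adjusted p 0.0782). These groups hold 2 to 11 peaks each, and nothing here was tested as a group.

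**Figure D5:**
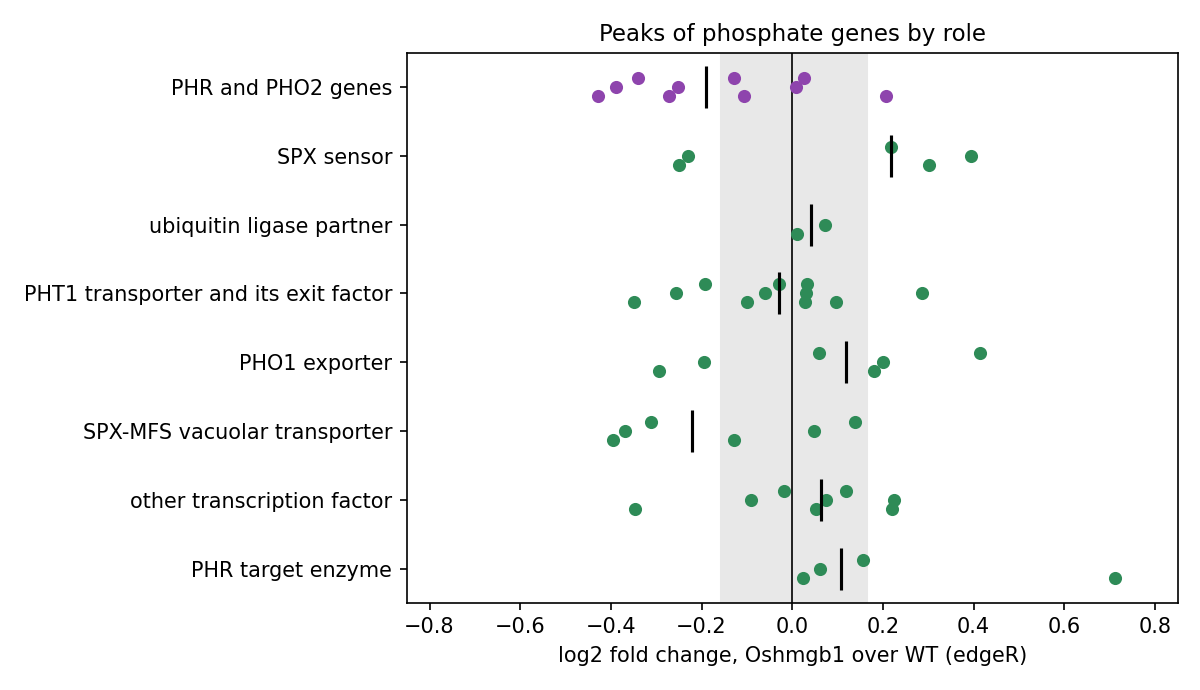
log2 fold change of Oshmgb1 over WT for each peak of the PHR and PHO2 genes (purple) and of other phosphate genes by role (green), with the median of each row as a black tick. The shaded band is the middle 50% of all peaks. The highest point is the OsPAP10a 5′ UTR peak at 0.71, and no point shown was called.

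The phosphate peaks nearest in level to the OsPHR2 promoter were a promoter peak of the transporter OsPT1 and 2 upstream peaks of the factor OsMYB2P-1. Their root mean square differences from it were 0.16, 0.20 and 0.32 in log2 CPM per kb over the 4 libraries, and 1.44% of all peaks were as close as the first. For the OsPHO2 peak farther into the gene they were the OsSPX3 3′ UTR peak (0.11, with 1.12% of all peaks as close), OsNIGT1 exon 4 (0.14) and the OsPT8 3′ UTR peak (0.18). With 4 libraries of 2 kinds, such likeness is a matter of level more than of pattern.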

How the data were processed

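The authors deposited 1 table of merged peaks. Per the file headers it holds raw read counts for each peak in each library, and these were tested. The RPKM deposited by the authors gave alternative library totals. The deposited log2 fold change and p-value, with its FDR, served for comparison. Their test is not named in the labels. Per the submitters' processing notes, the tools were ChIPseeker 1.16.1, MACS2 2.1.2, Bowtie2 2.4.4, fastp 0.23.0 and bcl2fastq 2.19, with no roles or settings named. The genome build, the Tn5 shift and duplicate removal are not given there, and coordinates are the table's own.

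Counts were fitted over all 46114 peaks, and over reads summed for 27116 genes, in R 4.3.3 with edgeR 4.0.16. This used TMM, the default filter, which removed nothing, the quasi-likelihood test with no covariates, and Benjamini-Hochberg adjustment at 0.05. Standard errors come from the F statistic. DESeq2 1.42.0 was the alternative. The procedure was also run on counts simulated with a common spread for all peaks, which is not used as support here. The spread between replicates exceeded counting noise (chi-square divided by its degrees of freedom, 2.50 in WT and 2.25 in Oshmgb1), so none was treated as a duplicate.

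The members and lists were chosen with earlier results of these data known. All member peaks are named, with the lowest p of each role group and the 3 phosphate peaks nearest in level to the strongest OsPHR2 and OsPHO2 peaks. Gene names for identifiers come from background knowledge. No sequences were analysed here, and the planned motif and microRNA site searches were not run.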

Additional observations from a re-analysis of the deposited data

How the results depend on the processing

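Called peaks numbered 0 of the 10, 0 of the 5 summed genes and 0 of the 42 peaks of other phosphate genes under every alternative run, which were DESeq2, its size factors, library totals alone, totals behind the RPKM, a mean count of at least 50, no filter, the replicate block, each library left out, and, for peaks, the authors' FDR. Of 175 log2 fold changes under these alternatives 163 kept their sign. The exceptions were near 0. With totals behind the RPKM, the value was -0.034 at OsPHR1 intron 6, -0.018 at the OsPHR2 promoter and -0.017 at OsPHR2 summed. In the authors' deposited table OsPHR1 intron 6 had -0.031 and the OsPHR2 promoter -0.022. With libraries left out, OsPHR1 intron 6 ranged from -0.070 to 0.096, the OsPHR2 promoter from -0.082 to 0.12, OsPHR2 summed from -0.085 to 0.13 and the upstream OsPHR3 peak from -0.26 to 0.0079. Over all peaks, edgeR called 186, DESeq2 45, and 530, 103 and 75 were called without WT replicate 2, Oshmgb1 replicate 1 and Oshmgb1 replicate 2. For summed genes the counts were 147, 36, 387, 81 and 49 in that order. Totals behind the RPKM gave 133 higher of 221 called peaks, against 148 of 186. With the replicate block, 179 peaks were called and no call on the members changed. Over all peaks, the deviations of same-numbered libraries correlated at -0.04. An effect that they share at few peaks would not show in this value. In WT, 9 of the 10 peaks held 60 to 149 reads per library, and at 60 reads counting error alone is 12.9% of the level.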

Other observations

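Relatives of the 5 regulators were looked at by their descriptions in the deposited table. Another 4 genes described as PHR1-LIKE 1 had 12 peaks, 0 of them called by edgeR, where 0.403% of all peaks were called. At an unadjusted p under 0.05 there was 1 (8.33%), against 12.2% of all peaks. That was an exon peak of LOC_Os08g25820 (symbol PHL7), with 4.77 and 6.84 CPM in WT and 8.31 and 8.51 CPM in Oshmgb1 (log2 fold change 0.52 ± 0.24 SE, adjusted p 0.364). Their median log2 fold change was -0.05, between values of -0.34 and 0.52. The 27 other genes described as ubiquitin-conjugating enzymes, the class that OsPHO2 belongs to, had 56 peaks, 0 called by edgeR and 4 at an unadjusted p under 0.05 (7.14%, below the share of all peaks). Their median log2 fold change was -0.01.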
